A study of Mus musculus with 7 samples.

Results

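Cells of the MEF-3F library, mouse embryonic fibroblasts transduced with viruses carrying Olig2, Sox10 and Nkx6.2, were set against primary oligodendrocyte progenitor cells (pOPC), to ask which progenitor genes stood at the primary level, which were missing and which stood above it. Members were all cell barcodes of these libraries with 500 or more unique molecular identifiers (UMIs, tags that count each captured transcript once): 161 cells of MEF-3F and 134 of pOPC, 295 of the 1124 cells in the series. The barcode just below that limit held 499 UMIs in MEF-3F and 461 in pOPC, and the barcode just above it held 508 and 525. All 7 libraries of the series came from C57BL/6 mice, were dissociated with trypsin-EDTA and were captured as single cells on the ddSEQ droplet system with a kit that reads the 3′ ends of polyadenylated RNA. The pOPC came from brain, were not transduced and, like MEF-3F, were kept in OPC medium. The MEF library, shown beside them as the donor, held untransduced fibroblasts from embryos in MEF medium, so that factors and medium both differ between MEF and MEF-3F and cannot be told apart. The labels give no age, no time after transduction, no promoter in the viruses, no selection or sort of converted cells, and no number of animals or cultures behind a library.

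Each population was 1 library, so nothing here has a replicate check and no test between populations exists. Levels are UMIs of a gene scaled to the library total (CPM), and every interval is an exact 95% interval that covers counting error only. The MEF-3F cells held 458315 UMIs and the pOPC 632480, with medians of 1866 and 3958 UMIs per cell. An absence of UMIs allows a level of up to 6.55 CPM in MEF-3F and 4.74 CPM in pOPC, which is what 3 UMIs are worth and the floor behind each "at least"; the exact intervals of 0 UMIs reach 8.05 and 5.83 CPM. Mitochondrial transcripts made up 0.797% of UMIs in MEF-3F and 0.594% in pOPC. No cell barcode was shared between any of the 7 libraries (0 in each pair). The MEF-3F matrix joins 2 blocks of barcodes that the labels do not explain, with 40 and 121 kept cells, and block values are given for a part of the named genes only. Xist, the RNA that coats the inactive X chromosome, had 28 UMIs in MEF-3F, 0 in pOPC and 1 in MEF, and the part that a different mix of sexes had in the results was not tested.

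Oligodendrocyte progenitors are dividing glial precursors of the brain and spinal cord. Olig2 and Olig1 (basic helix-loop-helix factors) and Sox10 (an HMG-box factor) set their identity, the PDGF receptor encoded by Pdgfra drives their division, and they coat themselves with chondroitin sulfate proteoglycans such as the products of Cspg4 (NG2), Bcan (brevican) and Ncan (neurocan). On leaving the cell cycle they become oligodendrocytes, which wrap axons in myelin, a membrane rich in cholesterol. Schwann cells, the myelinating glia of peripheral nerve, also depend on Sox10.

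A gene was measured where either library held at least 20 CPM and 10 UMIs. It was called higher or lower in MEF-3F where the ratio was 2-fold or larger and its interval left out 1, missing where it was lower with 3 UMIs or fewer in MEF-3F, and reached where the whole interval of the ratio lay within 2-fold of pOPC. Other measured genes could not be placed at this depth. Over all 8843 measured genes 1764 were higher (19.9%), 1724 lower (19.5%, the missing genes included), 356 missing (4.03%), 1590 reached (18%) and 3765 not placed (42.6%). The median log2 ratio was -0.07 and scaling by the trimmed mean of ratios moved it by 0.04. The levels of 132 progenitor genes, listed by role, divide as the plot of levels in both libraries shows: 129 had a row in the files and 118 were measured, of which 37 were higher, 20 reached, 20 not placed, 35 lower but detected and 6 missing. Shares near the background are no result about the list. Of the 37 higher genes 18 were measured only through MEF-3F, and of the 41 lower or missing genes 15 only through pOPC, so a difference was favoured in these. Among the 83 progenitor genes above the minimum in both libraries 19 were higher, 20 reached, 18 not placed and 26 lower. The same holds for the fibroblast, cartilage, Hox, forebrain and neuron lists below, whose members lie at or near 0 in 1 of the libraries: their counts describe those genes and are no support for a direction. It holds in part for other lists with members at 0 in pOPC, among them those of committed progenitors and myelin and of Schwann cells and neural crest.

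**Figure D1:**
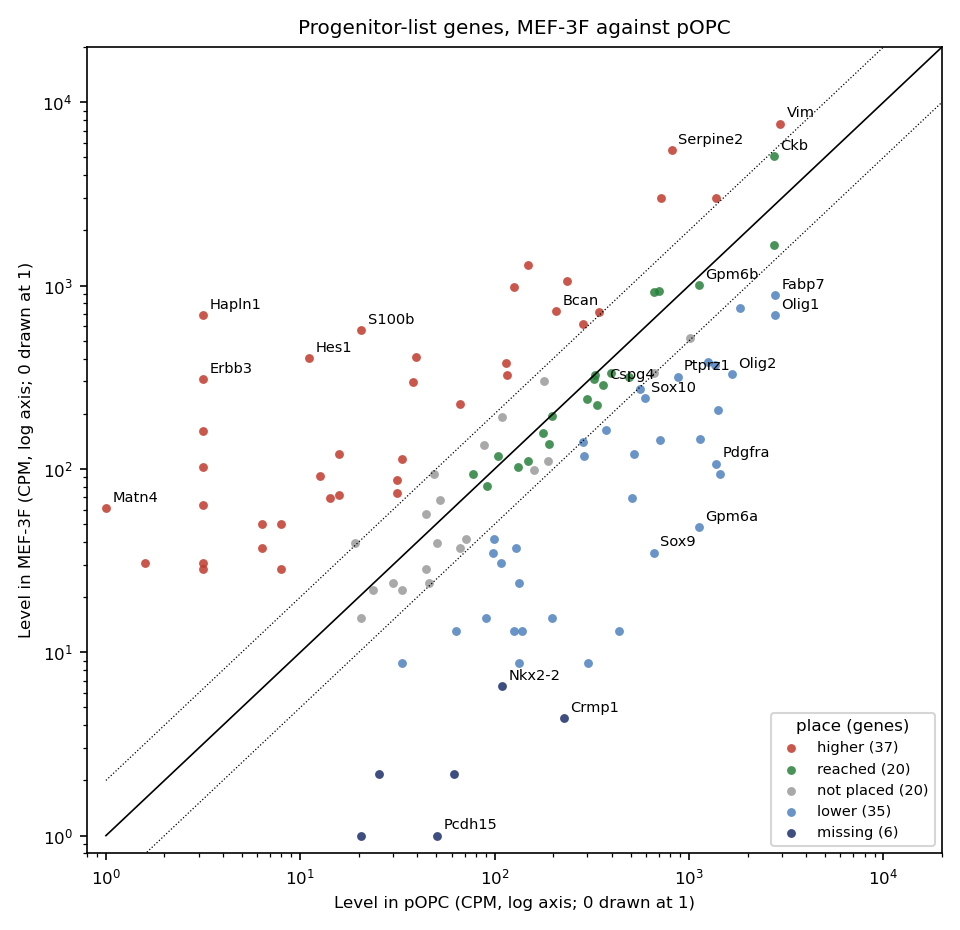
Levels of the measured progenitor-list genes in pOPC (x axis, CPM) and MEF-3F (y axis, CPM), both on log axes with 0 drawn at 1; colours give the place of each gene, the solid line equality and the dotted lines 2-fold. Serpine2, Hapln1, Erbb3 and S100b lie above the upper dotted line, Cspg4 and Gpm6b between the dotted lines, and Pdgfra, Sox9 and Gpm6a far below the lower one.

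Promoters of 4 members are shown because the delivered factors belong to families with known DNA motifs, and the members stood on different sides of the primary level: Serpine2 above, Gpm6b at it, Dll1 and Pdgfra below. Each run is the 250 bases before a RefSeq start site in GRCm38.p6, printed in the gene's own direction. Capitals mark the letters searched on both strands, ACAAAG (a SOX motif) and CAGCTG (an E-box of the kind bound by basic helix-loop-helix proteins); TAATTA (a homeodomain motif) occurs in none of them, and the 3 motifs do not overlap one another in these runs. Dll1 has a second start site in the table and only the one with matches is shown.
Serpine2, chr1:79858666-79858915, minus strand: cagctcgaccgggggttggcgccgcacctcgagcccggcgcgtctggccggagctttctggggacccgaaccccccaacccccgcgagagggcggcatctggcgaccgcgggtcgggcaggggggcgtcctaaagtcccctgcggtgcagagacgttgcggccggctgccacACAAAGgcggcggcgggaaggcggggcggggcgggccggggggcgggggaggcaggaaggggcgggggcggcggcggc
Gpm6b, chrX:166238693-166238942, plus strand: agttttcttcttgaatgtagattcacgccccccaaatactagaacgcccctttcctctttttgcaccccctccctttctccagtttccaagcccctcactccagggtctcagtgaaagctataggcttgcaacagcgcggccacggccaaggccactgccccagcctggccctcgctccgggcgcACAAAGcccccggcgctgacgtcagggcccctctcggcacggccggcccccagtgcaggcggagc
Dll1, chr17:15376933-15377182, minus strand: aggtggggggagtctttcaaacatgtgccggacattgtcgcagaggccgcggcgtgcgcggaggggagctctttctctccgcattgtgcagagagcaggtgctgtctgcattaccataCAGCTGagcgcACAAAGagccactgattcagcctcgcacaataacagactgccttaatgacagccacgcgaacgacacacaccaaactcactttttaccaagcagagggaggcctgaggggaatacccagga
Pdgfra, chr5:75152001-75152250, plus strand: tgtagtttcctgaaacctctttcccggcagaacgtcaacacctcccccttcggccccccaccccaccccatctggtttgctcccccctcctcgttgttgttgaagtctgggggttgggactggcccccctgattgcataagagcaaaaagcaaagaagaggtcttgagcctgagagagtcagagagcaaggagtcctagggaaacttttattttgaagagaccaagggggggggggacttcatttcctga
Serpine2 and Gpm6b each hold 1 ACAAAG, this Dll1 promoter holds 1 ACAAAG and 1 CAGCTG, and the Pdgfra window holds none of the letters searched. Among all 32851 promoters in RefSeq's set 16.5% held ACAAAG, 13% CAGCTG and 4.84% TAATTA in these 250 bases. Among 54 promoters of higher or reached progenitor genes the shares were 18.5%, 18.5% and 0%, and among 45 promoters of lower or missing ones 22.2%, 11.1% and 4.44%. A match is a string of letters, not a bound site, and the shares in both sets lie near those of all promoters.

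Of 27 measured transcription factors 5 were higher, 5 reached, 5 not placed, 10 lower and 2 missing, with a median log2 ratio of -0.89 (-1.72 with only the first block of MEF-3F). Olig1 stood at 2768 CPM (2640.3 to 2901) in pOPC, 687 CPM (613 to 768) in MEF-3F and 0 in MEF, 4.03-fold (3.57 to 4.56) below the primary level and at least 181-fold above the donor. Olig2 stood at 1657 CPM in pOPC, 329 CPM in MEF-3F and 0 in MEF, 5.03-fold (4.24 to 6.01) below pOPC. Sox10 stood at 591, 244 and 12.7 CPM, 2.42-fold (1.95 to 3.02) below pOPC and 19.3-fold above MEF. All 3 were thus well above the donor and short of the primary cells. Olig2 and Sox10 were delivered by virus, and the files do not separate transcripts of the delivered copies from those of the cell's own genes. In fibroblasts given only Olig2 and Sox10 (MEF-2F) the levels were 65.2 CPM for Olig2 and 130.4 CPM for Sox10. Nkx6-2, the third delivered factor, had 1 UMI in MEF-3F and 1 in pOPC, so delivery of it cannot be checked from these counts.

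Several factors of the progenitor state were lower in MEF-3F, some of them at or near the counting floor. Nkx2-2, a homeodomain factor of the oligodendrocyte lineage, had 69 UMIs in pOPC (109 CPM) and 3 in MEF-3F (6.55 CPM), and Rfx4, a factor of neural progenitors, had 39 and 1. Those are the 2 missing members of the factor list. Myt1, a zinc finger factor, stood at 90.1 CPM in pOPC and 15.3 CPM in MEF-3F. Sox9, a factor of neural stem cells, glia and cartilage, was 18.8-fold (11.5 to 33.3) lower at 34.9 CPM against 658 CPM, with 58.3 CPM in MEF. Sall3 was 4.32-fold lower and Sox6 stood at 118 CPM against 289 CPM. Sox2, a factor of neural stem cells and progenitors, had no UMI in MEF (0 CPM), 332 CPM in MEF-3F and 661 CPM in pOPC; its ratio of 0.502 (0.414 to 0.606) straddles the 2-fold limit and it was not placed.

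The factors that reached the primary level were the E proteins Tcf4 and Tcf12, which pair with Olig and other basic helix-loop-helix factors, the nuclear factors Nfia and Nfib, which act in gliogenesis, and Hes6. Nfia stood at 329 CPM in pOPC, 325 CPM in MEF-3F and 48.1 CPM in MEF, a ratio of 0.989 (0.796 to 1.23). Tcf4 stood at 702, 932 and 186 CPM, and Tcf12 at 397, 332 and 103 CPM. Both E proteins thus lay well above the donor. The 5 higher factors were Hes1, Hes5, Id2, Id4 and Klf6, of which Hes1 and Hes5 are targets of Notch signalling and Id2 and Id4 inhibit basic helix-loop-helix factors. Hes1 had 11.1 CPM in pOPC against 401 CPM in MEF-3F, a 36.3-fold ratio (17.3 to 91.5), and 594 CPM in MEF, so its MEF-3F level lay beside the donor's. Id2 stood at 343, 720 and 186 CPM in pOPC, MEF-3F and MEF; in the first block alone it stood at 254 CPM, below pOPC.

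The 36 measured receptors and surface proteins divided into 11 higher, 5 reached, 7 not placed, 12 lower and 1 missing (Lingo1), with a median of -0.37. Pdgfra stood at 1374 CPM (1284 to 1468) in pOPC, 107 CPM (79.1 to 141) in MEF-3F and 8.86 CPM in MEF, 12.9-fold (9.63 to 17.5) short of the primary level. Cspg4 stood at 360.5 CPM in pOPC, 286 CPM in MEF-3F and 89.9 CPM in MEF, with a ratio of 0.793 (0.635 to 0.987), so NG2 transcripts reached the primary level while those of the PDGF receptor did not. Averaged over cells with equal weight, the log2 ratio of Cspg4 was 0.36 instead of -0.33. Ptprz1, a receptor phosphatase of glial progenitors, was 2.74-fold lower at 319 against 873 CPM, and Cntn1, a neural cell adhesion protein, 3.24-fold lower at 384 against 1246 CPM; MEF held 53.2 and 3.8 CPM of these.

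Genes of AMPA receptors and Notch ligands were in part far below the primary level. Gria2, a subunit of AMPA-type glutamate receptors, stood at 438 CPM in pOPC and 13.1 CPM in MEF-3F, 33.5-fold (15.2 to 91.9) lower. Cacng4, which encodes an auxiliary subunit of the same receptors, was 34.4-fold (13.2 to 128) lower, at 300.4 against 8.73 CPM. Gria3, another AMPA receptor subunit, reached the primary level at 118 against 104 CPM, with 78.5 CPM in MEF. The Notch ligand genes Dll1 and Dll3 stood at 63.2 and 133 CPM in pOPC and at 13.1 and 8.73 CPM in MEF-3F, while the receptor gene Notch2 was 51.1-fold higher (13.6 to 429), at 161 against 3.16 CPM, with 77.2 CPM in MEF.

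Other receptors stood above the primary cells. Erbb3, a neuregulin receptor on which Schwann cells depend, had 3.16 CPM in pOPC, 308 CPM in MEF-3F and 8.86 CPM in MEF, a 97.3-fold ratio (26.4 to 811). Ednrb, the endothelin B receptor of neural crest and glial cells, stood at 283, 615 and 1.27 CPM, 2.17-fold (1.8 to 2.64) above pOPC, with 1128 CPM in the first block and 489 CPM in the second. Fgfr2 and Fgfr3, fibroblast growth factor receptors, stood at 103 and 69.8 CPM against 3.16 and 14.2 CPM. Cd9 and Cd81, tetraspanins of many cell types, were 4.5-fold and 4.16-fold higher. Gpr17, a receptor of progenitors on their way to differentiation, had 0 CPM in MEF and stood at 135 CPM in MEF-3F and 88.5 CPM in pOPC; the ratio of 1.53 (1.05 to 2.23) left it not placed.

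Of 23 measured proteoglycans and secreted proteins 15 were higher, none (0) reached, 4 were not placed, 3 were lower and 1 was missing, with a median of 1.80. Summed over the list, MEF-3F held 10890 CPM against 2568 CPM in pOPC and 3001 CPM in MEF, and Serpine2 alone made up 5503 CPM of the MEF-3F sum. The other progenitor lists were not higher in sum. MEF-3F held 5904 CPM of transcription factors against 10754 CPM in pOPC. For receptors and surface proteins the sums were 8213 against 8252 CPM, and for cytoskeletal and cytosolic genes 25825 against 27164 CPM. Bcan had no UMI in MEF (0 CPM), 207 CPM (173 to 246) in pOPC and 724 CPM (649 to 807) in MEF-3F, 3.5-fold (2.85 to 4.31) above the primary level. Vcan (versican) was 7.86-fold higher at 982 against 125 CPM, and Ncan was 2.05-fold lower at 273 against 559.7 CPM. Thus 2 of these 3 aggregating proteoglycans lay above the primary level and the third below it, and MEF held 222 CPM of Vcan and none of Ncan (0 CPM). Serpine2, a secreted protease inhibitor, was 6.74-fold (6.13 to 7.43) higher, at 5503 CPM against 816 CPM in pOPC and 690.1 CPM in MEF. Hapln1, a link protein that ties proteoglycans to hyaluronan in cartilage and brain, stood at 687 CPM against 3.16 CPM, a 217-fold ratio (59.7 to 1803). Matn4, a matrilin, had 28 UMIs in MEF-3F and 0 in pOPC, at least 12.9-fold higher. The lower members were Ncan, Dscam and Xylt1, and the missing one was Pcdh15, a protocadherin, with 32 UMIs in pOPC and 0 in MEF-3F, at least 7.73-fold lower.

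Of 33 measured cytoskeletal and cytosolic genes of glia and neural cells 10 reached the primary level, where 18% of all measured genes did. A further 7 were higher, 4 not placed, 10 lower and 2 missing (Crmp1 and Ckmt1), with a median of -0.59. Reaching needs a narrow interval and so many UMIs: 28 of these genes passed 100 CPM and 30 UMIs, against 10 of the proteoglycans and secreted proteins. With the first block alone 4 of 31 reached. Gpm6b and Gpm6a, which encode related membrane proteins of glia and neurons, lay apart. Gpm6b stood at 1129 CPM in pOPC, 1006 CPM in MEF-3F and 79.8 CPM in MEF, a ratio of 0.891 (0.791 to 1), whereas Gpm6a stood at 1118, 48 and 0 CPM, 23.3-fold (15.3 to 37.4) lower. Fabp7, a fatty acid binding protein of glial progenitors, was 3.12-fold lower at 888 against 2773 CPM and rested on 188 CPM in the first block and 1060.2 CPM in the second. Ckb, the brain form of creatine kinase, reached the level at 5071 against 2723 CPM (ratio 1.86, 1.75 to 1.98) from 123 CPM in MEF; in the second block alone its log2 ratio was 1.03, past 2-fold. Slc1a3, a glutamate transporter of glia, was level at 194 against 196 CPM.

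Members of that list that act in neurite growth and the neuronal cytoskeleton were in part lower. Crmp1 had 143 UMIs in pOPC and 2 in MEF-3F, Dpysl3 was 7.8-fold lower at 146 against 1140 CPM, Basp1 6.7-fold lower at 209 against 1404 CPM, and Tubb2b stood at 367 against 1366 CPM, whereas Map1b and Marcks reached the primary level and Stmn1, Marcksl1 and Tubb3 were not placed, with Stmn1 at 0 CPM in the first block and 51.7 CPM in the second against 71.1 CPM in pOPC. Dpysl3 and Basp1 in MEF-3F also lay below the donor, which held 826 and 684 CPM. S100b, a calcium-binding protein of glia, was 27.9-fold higher (16 to 53.1) at 574 against 20.6 CPM, and Ttyh1, a channel-like membrane protein of neural cells, 10.4-fold higher at 410.2 against 39.5 CPM. Neither gene had a UMI in MEF (0 CPM), so both stood above the donor and the primary cells. Vim, the intermediate filament of mesenchymal and immature glial cells, stood at 2947, 7648 and 4766 CPM in pOPC, MEF-3F and MEF; counted only over codes with a sure count its log2 ratio was 0.77, under 2-fold.

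**Figure D2:**
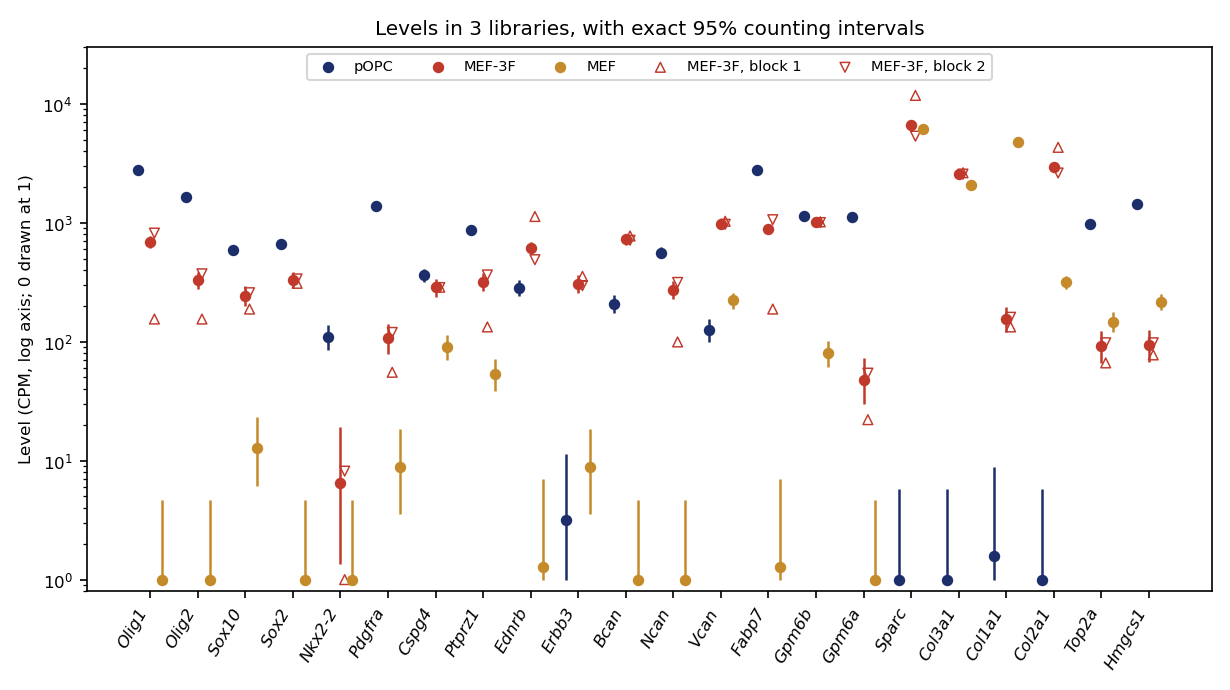
Levels (CPM, log axis, 0 drawn at 1) of named genes in pOPC, MEF-3F and MEF, with exact 95% counting intervals as vertical lines; open triangles give the 2 barcode blocks of MEF-3F. Olig1, Olig2 and Fabp7 lie lower in the first block than in the second, Ednrb higher, and Cspg4, Bcan and Gpm6b nearly the same in both.

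Placing the same genes against the donor shows which of these levels also differed from the donor. A gene was above or below MEF by the same 2-fold rule, or level with it; over the 8546 genes measured for that comparison 23.6% were above, 12.7% below and 20.6% level. Of the 37 progenitor genes higher than pOPC, 24 were also above MEF, 5 were level with it and 4 below it. Of the 20 that reached the primary level 13 were above MEF and 4 level with it. Of the 35 lower ones 19 were above MEF, so they stood between the donor and the primary level. The 2 comparisons share the MEF-3F library, and no overlap between them is read as a result. There were 42 measured members with 3 UMIs or fewer in MEF. Of these, 28 stood above MEF in MEF-3F and 14 were too low in MEF-3F to be measured against MEF. A member with so few UMIs in MEF that met the minimum level in MEF-3F had to stand above MEF. The 28 are therefore no result about a move away from the donor. Against pOPC, 9 of the 28 were higher, 1 reached, 6 not placed and 12 lower. The gene that reached the primary level was Lrrn1, a leucine-rich repeat membrane protein, at 111 against 149 CPM, with 2.53 CPM in MEF.

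The same question was put to sets drawn from pOPC and MEF without use of MEF-3F. Of 297 genes whose interval in pOPC lay wholly above 4 times the MEF level, 10 were higher in MEF-3F than in pOPC (3.37%), 32 reached (10.8%), 31 not placed, 198 lower (66.7%) and 26 missing (8.75%), while 187 stood above MEF. Since the set was chosen for high values in pOPC and low ones in MEF, values below pOPC and above MEF are both favoured. The 187 are therefore no result about a move away from the donor. Of 374 genes with MEF wholly above 4 times pOPC, 280 were still higher than pOPC in MEF-3F and 76 were not measured in that comparison; 260 lay below MEF, 60 were level with it and 9 above it. This set was chosen for high values in MEF and low ones in pOPC, so values between the 2 are favoured and nothing is read from these counts.

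**Figure D3:**
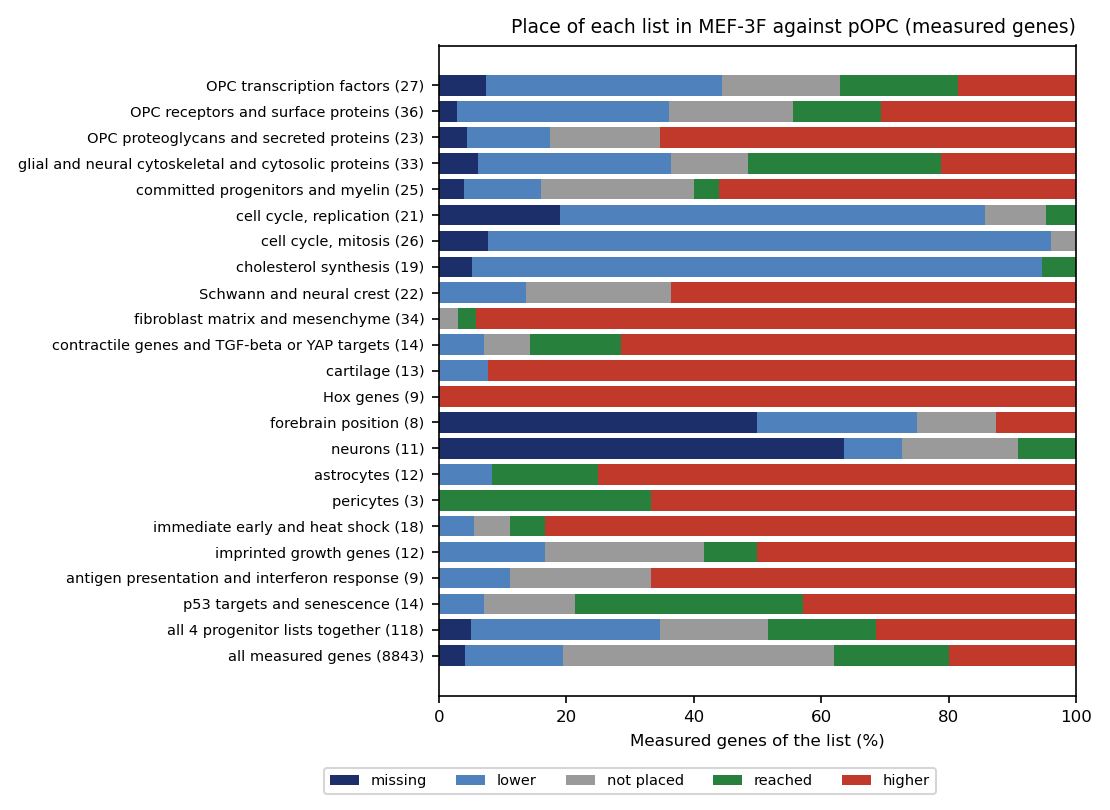
Share of the measured genes of each list (x axis, percent) that were missing, lower, not placed, reached or higher in MEF-3F against pOPC; the number measured stands in brackets and the last bar holds all 8843 measured genes. Fibroblast, cartilage and Hox lists are almost wholly higher, cell cycle and cholesterol lists almost wholly lower, and the progenitor lists divided.

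Genes of fibroblast matrix and mesenchyme were higher in 32 of 34 measured cases, with a median of 6.74, and 1 was reached (Prrx1, chosen here after its value was seen). Sparc, a collagen-binding secreted protein, had 0 UMIs in pOPC, 6605 CPM in MEF-3F and 6134 CPM in MEF, at least 1392-fold above pOPC by the floor of 3 UMIs and 1132-fold by the lower end of the exact interval. Only 60.6% of the Sparc UMIs in MEF-3F came from codes with a sure count, and neither bound covers that uncertainty. Col3a1 stood at 0, 2577 and 2091 CPM, and Postn (periostin) at 0, 1001 and 753 CPM. Over both blocks together these genes stood near the donor level, but Sparc stood at 11751 CPM in the first block and 5339 CPM in the second, and Postn at 2123 and 726 CPM, so the first block lay above MEF for both. Col1a1 and Col1a2, the chains of type I collagen, stood at 155 and 1012 CPM in MEF-3F against 4816 and 7437 CPM in MEF and 1.58 CPM each in pOPC, 31.1-fold and 7.35-fold below the donor but above pOPC, with 2145 CPM of Col1a2 in the first block and 734 CPM in the second. Summed, the list held 22629 CPM in MEF-3F, 343 CPM in pOPC and 59935 CPM in MEF. Acta2, the actin of smooth muscle and myofibroblasts, stood at 0 CPM in pOPC, 284 CPM in MEF-3F and 9109.8 CPM in MEF, with 86.2% of its MEF-3F UMIs in 5 cells and levels of 11.1 CPM in the first block and 351 CPM in the second; of 14 measured contractile and TGF-beta or YAP target genes 10 were higher than pOPC.

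In sum, cartilage genes stood above pOPC and MEF. Of 13 measured members 12 were higher than pOPC, with a median of 7.44, and the exception was Sox9, the factor that drives cartilage collagens. Col2a1, the main collagen of cartilage, had 0 CPM in pOPC, 2949.9 CPM in MEF-3F and 315 CPM in MEF. Col9a1 stood at 22.1, 4124 and 2.53 CPM, Col9a2 at 1.58, 1344 and 0 CPM, and Lect1 (chondromodulin) at 0, 864 and 0 CPM. High levels were not particular to MEF-3F: MEF-2F held 3225 CPM of Col2a1, 509 CPM of Col9a2 and 252 CPM of Lect1. The first and second blocks held 3814 and 4200 CPM of Col9a1, so both blocks carried it, while Col2a1 stood at 4300.4 and 2618 CPM and Lect1 at 376 and 984 CPM. The list's summed level was 19271 CPM in MEF-3F, 958 CPM in pOPC and 1154 CPM in MEF.

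Differentiation and peripheral glial genes also passed the primary level in part. Of 25 measured genes of committed progenitors and myelin 14 were higher, 1 reached, 6 not placed, 3 lower and 1 missing, with a median of 1.32. Mbp, a major protein of myelin, stood at 20.6 CPM in pOPC, 67.6 CPM in MEF-3F and 2.53 CPM in MEF. Mal, Mag, Trf and Aspa had 0 UMIs in pOPC and between 11 and 32 in MEF-3F, so these had to differ. Tspan2 was missing, with 24 UMIs in pOPC and 0 in MEF-3F. Of 22 measured Schwann cell and neural crest genes 14 were higher, 5 not placed and 3 lower. Of the 35 with a row 17 had a UMI in pOPC and 31 in MEF-3F, so a part of the higher calls was fixed by the minimum level. With the first block alone 8 of 16 measured genes were higher, and with the second alone 7 of 16. Ngfr, a neurotrophin receptor of crest cells and Schwann cells, had 31 UMIs against 0, at 321 CPM in the first block and 5.44 CPM in the second. The list shares genes such as Cnp, S100b, Ednrb, Erbb3 and Sox9 with lists above.

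Cell division and sterol synthesis, both active in the primary library, were low in MEF-3F. Of 21 measured replication genes 18 were lower (median -2.73) and of 26 mitosis genes 25 (median -2.80). Top2a, a topoisomerase of dividing cells, stood at 979 CPM in pOPC, 91.6 CPM in MEF-3F and 147 CPM in MEF, and Mki67, the proliferation antigen, at 367, 48 and 48.1 CPM. Rrm2, a subunit of ribonucleotide reductase, was 36.1-fold (17.3 to 90.5) lower and Aurkb, a mitotic kinase, had 2 UMIs against 160. Top2a and Mki67 thus lay nearer to the donor than to pOPC. In cholesterol synthesis 18 of 19 measured genes were lower, with a median of -2.37. Hmgcs1, an early enzyme of the pathway, stood at 1439 CPM in pOPC, 93.8 CPM in MEF-3F and 217 CPM in MEF. The exception was Scd2, a fatty acid desaturase rather than a sterol enzyme and named after its value was seen, which reached the level at 2367 against 2824 CPM.

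Hox genes stood in sum at about the donor level and forebrain genes were low. All 9 measured Hox genes, which mark levels of the body behind the forebrain, were higher; pOPC held 0 UMIs over all 32 Hox genes with a row, MEF-3F 443 CPM in sum and MEF 493 CPM. Hoxa5 stood at 56.7 CPM in MEF-3F and 55.7 CPM in MEF, and Hoxa10 at 48 and 46.9 CPM. A UMI was seen for 19 Hox genes in MEF-3F and for 30 in MEF, which held more UMIs (789695). With the first block of MEF-3F alone, which held 90457 UMIs, no Hox gene was measured (0). Whether the donor's pattern over single Hox genes was kept was not tested. Of 8 measured forebrain genes 6 were lower, 4 of these missing. Gsx1, a factor of the ventral forebrain, had 63 UMIs in pOPC and 0 in MEF-3F, at least 15.2-fold lower. Nr2f2 was higher at 120 against 14.2 CPM, with 55.7 CPM in MEF.

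Markers of other cell types were read in both libraries. Of 11 measured neuron genes 8 were lower in MEF-3F, 7 of them missing, and no member was higher (0). Nsg2 had 175 UMIs in pOPC, Stmn3 116 and Dcx 57, all with 0 in MEF-3F, so neuronal transcripts were part of the pOPC library: thinned to 1000 UMIs, 23.3% of pOPC cells had a UMI of Nsg2 and 7.76% of Dcx. Neuron genes summed to 1554 CPM in pOPC, 351 CPM in MEF-3F and 272 CPM in MEF; their part in the deficits of Crmp1, Dpysl3, Gria2 and other genes that neurons also express was not tested. Of 12 measured astrocyte genes 9 were higher and 2 reached, although several of these genes are expressed by other glia or fibroblasts. Apoe, an apolipoprotein of astrocytes and many other cells, stood at 1.58 CPM in pOPC, 1228 CPM in MEF-3F and 110.2 CPM in MEF. No microglial or endothelial gene was measured (0 in each list), and the 14 microglial genes summed to 2.18 CPM in MEF-3F. Immediate early and heat shock genes, which respond to handling as well as to signals, were higher in 15 of 18 measured cases; Fos stood at 96.4, 3554 and 669 CPM in pOPC, MEF-3F and MEF. Their part in the other results was not tested. Of the remaining lists, 6 of 12 measured imprinted growth genes, 6 of 9 genes of antigen presentation and interferon response, 6 of 14 p53 targets and senescence genes and 2 of 3 pericyte genes were higher.

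Per cell, progenitor and mesenchymal transcripts were counted under the same MEF-3F barcodes. Cells were thinned to 1000 UMIs to remove differences in depth, which left 122 cells of MEF-3F, 116 of pOPC and 129 of MEF and dropped 39, 18 and 2 shallower ones. A median of 23 progenitor-list genes had a UMI in a MEF-3F cell (range 12 to 32), 28 in pOPC (18 to 39) and 10 in MEF (2 to 18). Of the 122 MEF-3F cells 104 lay above the highest MEF cell and 107 at or above the lowest pOPC cell, whereas 15 reached the pOPC median. The share of a cell's UMIs in the same genes had medians of 5.15% in MEF-3F, 4.8% in pOPC and 1.8% in MEF. MEF-3F cells were thus short of pOPC in the number of these genes seen, not in their summed share. Without thinning the medians divide differently, since MEF-3F cells were shallower: the MEF-3F median was then 64.2% of that in pOPC, against 82.1% with thinning. The 32 transcription factors alone separated the thinned cells less. Their medians were 4.5 in MEF-3F, 7 in pOPC and 1 in MEF. By these factors 33 of the 122 MEF-3F cells lay above the highest MEF cell, 104 at or above the lowest pOPC cell, and 14 reached the pOPC median. The lowest pOPC cell had 3 factors and the highest MEF cell 5. The pOPC limit thus lies inside the MEF range, and nothing is read from the 104. Fibroblast genes gave medians of 8 in MEF-3F (3 to 26), 0 in pOPC (0 to 2) and 18 in MEF (4 to 27), so every thinned MEF-3F cell had more of them than any pOPC cell. Mitosis genes gave medians of 0, 6 and 0.

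**Figure D4:**
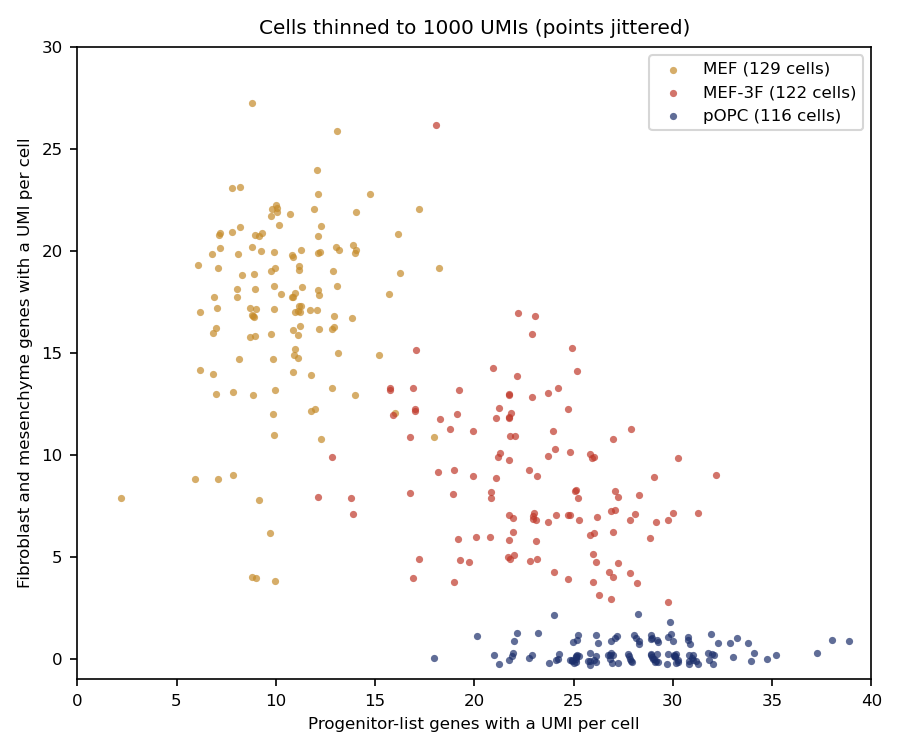
Each point is 1 cell thinned to 1000 UMIs, placed by the number of progenitor-list genes (x axis) and of fibroblast and mesenchyme genes (y axis) with at least 1 UMI, jittered to separate points. The 122 MEF-3F cells lie between the 129 MEF cells (upper left) and the 116 pOPC cells (bottom right), with medians of 23 progenitor and 8 fibroblast genes.

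Across the 122 MEF-3F cells the counts of progenitor and fibroblast genes ran weakly against each other (Pearson r -0.31, Spearman rho -0.33; -0.20 and -0.18 in the 27 cells of the first block, -0.26 and -0.26 in the 95 of the second). All these cells share 1 library and were thinned to a fixed total of UMIs. The same 2 values were 0.06 and 0.06 in the 116 pOPC cells, which held at most 2 fibroblast genes each. In the 129 MEF cells they were 0.15 and 0.10. The part of the fixed total in these relations was not tested. Olig2 was seen in 22.1% of thinned MEF-3F cells (27 of 122, exact binomial interval 15.1 to 30.5), 75.9% of pOPC and 0% of MEF cells (0 of 129, which allows up to 2.33% by a floor of 3 cells and 2.82% by the exact interval), and Sox10 in 18.9%, 43.1% and 1.55%. Without thinning the shares for Olig2 were 38.5%, 93.3% and 0%. Olig2 and Sox10 were seen together in 9 MEF-3F cells (7.38%, 3.43 to 13.5) and 36 pOPC cells (31%, 22.8 to 40.3). Bcan was seen in 50% of MEF-3F cells, 13.8% of pOPC and 0% of MEF cells, and Pdgfra in 11.5%, 74.1% and 0.775%. Sparc had a UMI in all 122 thinned MEF-3F cells, in 121 of 129 MEF cells and in 0 of 116 pOPC cells, which allows up to 2.59% by the same floor and 3.13% by the exact interval. Each of the 27 MEF-3F cells with Olig2 therefore also carried Sparc, as did the 61 with Bcan. With Sparc in every cell this holds for any gene, so nothing is read from that overlap. Col9a1 was seen in 82.8% of MEF-3F cells, 1.72% of pOPC and 0% of MEF cells. Doublets were not removed, and no MEF-3F cell that lacks Sparc was found in which free RNA could be gauged; the part of doublets and of free RNA in these shares was not tested.

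Relative to pOPC, both blocks of MEF-3F lay above for 35 of the 37 higher progenitor genes and below for all 35 lower and 6 missing ones. For 7 of the 20 reached genes they lay on different sides. These places were called from the sum of both blocks, so agreement on the side is favoured, and for missing genes it is nearly fixed. Nothing is read from that agreement. The blocks differed in size for several of the genes that define the lineage. Olig1 stood at 155 CPM in the first block and 818 CPM in the second, Olig2 at 155 and 372 CPM, Ptprz1 at 133 and 364 CPM and Pdgfra at 55.3 and 119.6 CPM, all higher in the second, while Ngfr and Ednrb were higher in the first. The median number of progenitor genes per thinned cell was 21 in the first block and 24 in the second, and that of fibroblast genes 11 and 8.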

How the data were processed

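One droplet library per population was deposited as a table of genes by cell barcodes. Per the submitters' processing notes, the mm10 genome, featureCounts 1.6.1 (Subread), STAR 2.5.3a, UMI-tools 0.5.3 and bcl2fastq 2.19.1.403 were used, in an order not given in the sources used here. The deposited values are of another kind than UMI counts, and how the authors made them is not stated. Each was read as the place, from 0, of a count in the list of occurring counts sorted as text, an inference on which every level here depends. Counts were recovered for each barcode block by aligning codes to text-sorted whole numbers under a smooth frequency curve. Codes with a probability above 0.99, called sure, held 97.7% of UMIs in pOPC and 98% in MEF-3F. For some genes with high counts the share in MEF-3F was lower: 60.6% for Sparc, 69.6% for Col1a2, 73% for Apoe and 74.1% for Col2a1, against 100% for Col9a2. On simulated codes, which assume that reading, 99.91% to 99.98% of entries above 0 came out exact over pOPC, MEF and both MEF-3F blocks, with gene sums wrong by at most 2.78% among genes with 30 or more UMIs.

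Barcodes with 500 UMIs and under 20% mitochondrial UMIs were kept, none failing the latter (0), and doublets were not removed. UMIs were summed per library over 17784 genes and scaled to CPM. Ratios carry exact conditional binomial intervals, levels exact Poisson and shares exact Clopper-Pearson intervals, all at 95%; log2 ratios add 0.5 UMIs per library. A fold against 0 UMIs sets that library at 3 UMIs. Thinning drew 1000 UMIs per cell once. Python 3.11.15, numpy 2.4.6, pandas 2.3.3 and scipy 1.17.1 were used, with promoters from RefSeq on GRCm38.p6, the assembly called mm10; 87 of the 118 measured progenitor genes matched a promoter.

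The members, lists and rules were chosen with earlier results of these data known. Any measured progenitor gene could be named, of other lists the 6 measured members with the largest log2 ratios, the 12 highest and 12 lowest of all genes, and a few fixed genes; other genes are given for context, and some genes that the rule names are not reported here. Alternatives are in the closing section.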

Additional observations from a re-analysis of the deposited data

How the results depend on the processing

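Of 249 recomputed list medians, counts of genes and per-cell values 237 stayed within 1.5 times the count, inside the interval of the median over the list's members or between the quartiles over cells, and 12 moved past that. The interval over members is wide: of 214 list medians 35 moved by over 1.5 times, 30 of them inside it. The median of p53 targets and senescence genes, 0.43, changed sign in 6 settings, with values from -0.14 to -0.02. With only the first block of MEF-3F the medians were -1.72 for transcription factors, 1.51 instead of 3.46 for contractile genes and -1.95 instead of -4.29 for neurons; with a minimum of 100 CPM and 30 UMIs they were -6.61 for neurons and -1.01 instead of -3.07 for forebrain genes. With a minimum of 100 CPM and 30 UMIs, 596 genes were higher, 743 lower and 1047 reached. With only the first block of MEF-3F, 901 genes were higher and 348 reached, and the medians were -3.46 for replication, -4.40 for mitosis and -0.71 for all progenitor lists. With 5 CPM added to both levels the medians were 4.78 for fibroblast and 3.07 for Hox genes, and with no minimum level 4.71 for Hox genes. Without thinning the per-cell median of progenitor genes in MEF-3F was 64.2% of that in pOPC. The fewer UMIs of the first block, the genes tested and the added constant are part of those settings; other causes were not tested. The first block alone turned 1 named gene, Id2, to a log2 ratio of -0.40. No paired analysis was possible because every group is 1 library.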
